A study of Homo sapiens with 6 samples.

Results

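The transcripts described here are those of 10 genes of the NF-kB system, namely the 5 Rel family subunits RELA, RELB, REL, NFKB1 and NFKB2, the IkB proteins NFKBIA, NFKBIB and NFKBIE, the ubiquitin-editing enzyme TNFAIP3, and BCL3. They were taken by gene name from the expression tables, which list 29638 rows, and all 10 were found as a single row each. The data are 6 RNA sequencing libraries of AC16, an immortal human line obtained by fusing ventricular cardiomyocytes with fibroblasts that carry SV40. All cells are labelled wild type. The 3 control libraries came from cells given ethanol, the vehicle, and the 3 PA libraries from cells given a fatty acid. The treatment label reads palmitelaidic acid, a trans-unsaturated acid, while the series title speaks of palmitic acid, which is saturated, so the name PA is kept. The sources used here give neither dose nor time of exposure, and do not say whether libraries of a group are separate cultures, so a p-value here reflects nothing but the variation among these libraries, which may be technical.

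NF-kB is a family of dimeric transcription factors that IkB proteins hold inactive in the cytoplasm. Signals from cytokine and Toll-like receptors activate the IKK kinases, which mark IkB for destruction and release the dimers into the nucleus. There they switch on inflammatory genes and also the genes of their own inhibitors, chiefly NFKBIA and TNFAIP3, which close a negative feedback loop. A slower, non-canonical branch processes the NFKB2 precursor and acts through RELB. Saturated fatty acids are often studied as activators of this pathway in heart and muscle cells. Transcript levels do not show the nuclear location or activity of these proteins.

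Several of these genes are textbook targets of NF-kB themselves, so the promoter stretches that match the kB motif are shown here for the genes discussed below. RefSeq promoters on GRCh38.p14, each spanning 250 bases before to 50 after a transcript start, were found for 8 of the 10 genes, with 13 records in all. The genes without one are RELB and NFKBIE. The motif searched, on both strands, was the kB consensus of 10 bases. It was present for 7 of the 8 genes, in 8 of the 13 records, and in 5.91% of all 35116 promoters of that length. Each line below is 30 bases, read 5′ to 3′ on the gene's strand, with the matching bases in capitals and overlapping matches joined.
NFKBIA: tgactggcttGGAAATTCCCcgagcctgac
TNFAIP3: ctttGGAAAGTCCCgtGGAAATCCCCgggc
NFKB1: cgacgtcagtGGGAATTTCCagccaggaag
REL: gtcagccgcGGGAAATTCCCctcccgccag
NFKBIB: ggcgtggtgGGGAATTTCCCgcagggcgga
NFKB2, start 2: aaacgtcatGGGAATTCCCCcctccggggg
NFKB2, start 3: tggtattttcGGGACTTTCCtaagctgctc
BCL3: ccggctgcagGGGAAGTCCCggcgcccggc
These lie at chr14:35404811-35404840 on the minus strand (NFKBIA), and on the plus strand at chr6:137867188-137867217 (TNFAIP3), chr4:102501300-102501329 (NFKB1), chr2:60881518-60881547 (REL) and chr19:38899932-38899961 (NFKBIB). Those of NFKB2, which has 1 further match at each of these starts, are at chr10:102394462-102394491 and chr10:102395674-102395703, and that of BCL3, whose match lies just after the start, at chr19:44748700-44748729, also on the plus strand. The promoter of NFKBIA upstream of its start, with the same match in capitals, illustrates the setting in 120 bases (chr14:35404750-35404869).
NFKBIA, upstream: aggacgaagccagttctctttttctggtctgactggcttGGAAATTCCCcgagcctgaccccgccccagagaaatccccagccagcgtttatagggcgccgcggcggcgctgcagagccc
RELA had no match in either of its records. A match is a run of letters, and binding was not measured.

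Expression is given as RPKM, a read count divided by the length of the transcript and the size of the library. Levels of different genes can be set side by side only as far as the lengths used are right, and these are not known here. The libraries differed in ways that touch these genes. The summed RPKM ran from 733025 in control 3 to 881369 in PA 3, and read depth itself is unknown. PA 3 was the library least like its group, with a mean correlation of 0.971 to its 2 partners over 14159 genes, against 0.974 to 0.980 for the rest. Transcripts longer than 4000 nt sat at a median of -0.20 on the log2 scale relative to their own mean in PA 3. They sat at 0.139 in control 3, 0.0962 in control 1, 0.0582 in PA 1, -0.0207 in control 2 and -0.0585 in PA 2. Transcripts above 60% GC sat at -0.23 in control 3, 0.115 in PA 1 and 0.0965 in PA 2. In the remaining libraries the latter were between -0.0252 and 0.0386. The cardiomyocyte label was checked against 13 markers, of which 11 are listed and only TNNI3 reached a mean of 1 RPKM. TNNT2 was at most 0.15 RPKM and MYH6 and MYH7 at most 0.06 RPKM, whereas 9 of 11 fibroblast markers reached that mean.

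All 10 genes were expressed and none of them passed the test for a difference between PA and control. In simulated data with 200 of 14159 genes changed, the same test called 8.96% of those changed by 0.5 on the log2 scale. In the real data 681 genes passed, so the share found there may differ and is not known. A gene that did not pass is not shown to be unchanged. The test was limma on log2(RPKM + 1), run over the 14159 genes whose mean reached 1 RPKM, with a Benjamini-Hochberg adjusted p below 0.05 as threshold. Of all genes tested 4.81% passed. At an unadjusted p below 0.05 the count was 2 of 10, NFKB2 and BCL3, where 25.9% of all genes reached that level. The 3 PA values lay wholly above the 3 control values for NFKB2, RELB and BCL3, which is 3 of 10, and wholly below for none. That was so for 32.6% of all genes in either direction, for 16.7% with PA higher and for 15.9% with PA lower, so the share of 10 genes is near that of all genes. Their median log2 fold change was -0.12, against -0.02 for all genes tested. It rests on single libraries, since it was -0.02 without PA 3, -0.06 without control 2 and -0.18 without control 3. In RNA from whole cultures, fewer cells of a kind and less RNA per cell cannot be told apart.

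**Figure D1:**
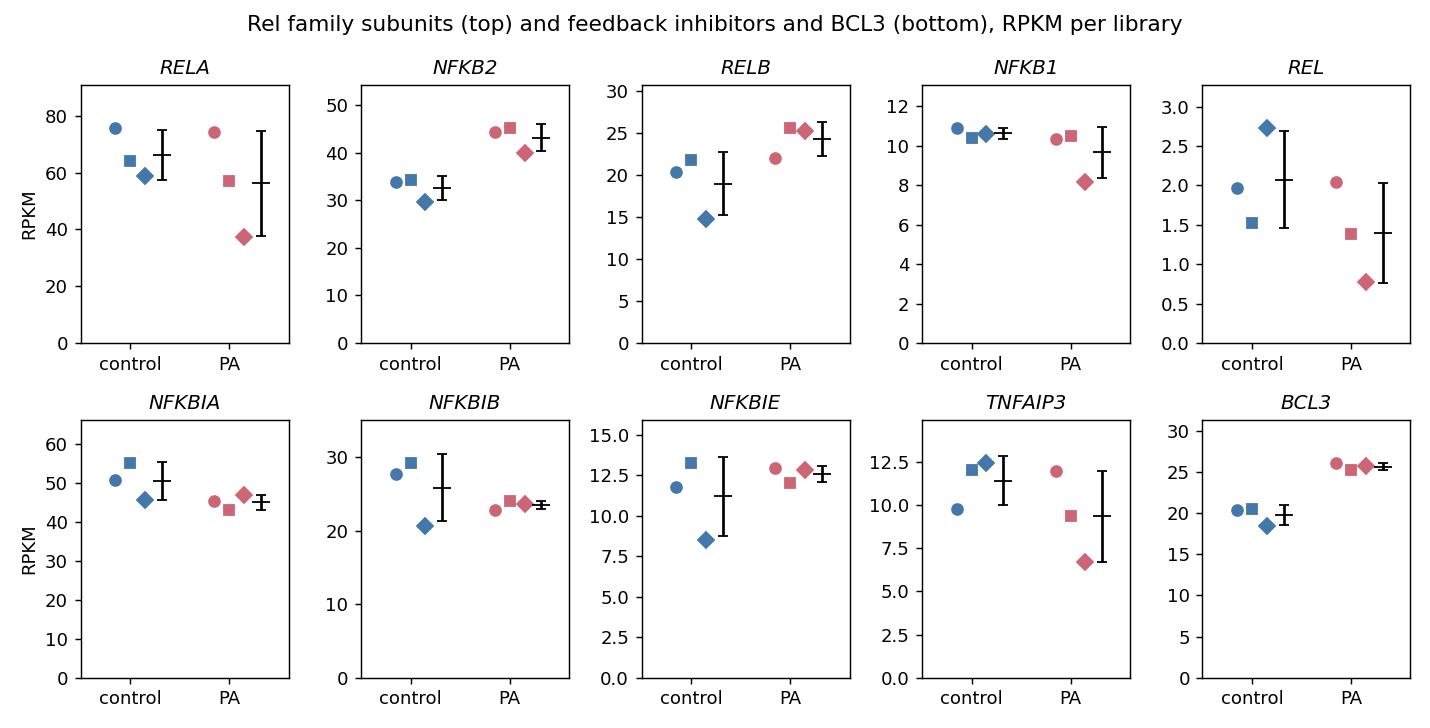
RPKM of the 10 genes in each library, with subunits in the upper row and inhibitors and BCL3 in the lower row. Circles, squares and diamonds are replicates 1, 2 and 3, bars are the mean and SD of 3 libraries, and each vertical axis starts at 0. PA points lie above all control points for NFKB2, RELB and BCL3.

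RELA, which encodes the main transactivating subunit p65, was the highest of the 10 in control, at 75.8, 64.2 and 58.7 RPKM. The PA libraries gave 74.3, 57.2 and 37.4 RPKM. The groups overlapped, with PA 2 and PA 3 below every control and PA 1 near the highest. The means were 66.2 ± 8.73 and 56.3 ± 18.5 RPKM (SD, n = 3 per group). On the log2 scale PA was -0.28 ± 0.23 (SE) relative to control (limma adjusted p = 0.484). Without PA 3 this was -0.01, without control 1 it was -0.18, and without PA 1 it was -0.50.

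NFKB2, the precursor subunit of the non-canonical branch, was at 33.8, 34.2 and 29.7 RPKM in control and at 44.5, 45.2 and 39.9 RPKM in PA. Every PA library exceeded every control library. Its log2 fold change of 0.40 ± 0.11, with a 95% interval from 0.15 to 0.65, was the largest of the 10 in size on this scale, but the limma adjusted p was 0.073. With a pseudocount of 0.1 REL was larger in size, at -0.60 against 0.41, and with libraries rescaled to a common sum both REL (-0.44) and RELA (-0.38) were, against 0.29. RELA was also larger, at -0.40 against 0.38, with length and GC trends taken out. REL was larger with a pseudocount of 0.5 too, at -0.47 against 0.40. With a library left out, REL was larger without PA 1 (-0.56 against 0.38), control 2 (-0.51 against 0.43) or PA 2 (-0.39 against 0.36). Without control 3 RELA was larger, at -0.36 against 0.33. The interval is for this gene alone and is not widened for the number of genes tested. The value stayed between 0.33 and 0.45 when any 1 library was left out, and passed in none of these 6 fits.

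RELB, the partner of processed NFKB2, had 20.3, 21.9 and 14.8 RPKM in control and 22.0, 25.6 and 25.3 RPKM in PA. PA 1 and control 2 were almost level, and control 3 stood below the rest. Its log2 fold change was 0.36 ± 0.16 (limma adjusted p = 0.2), and 0.19 without control 3.

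NFKB1, the precursor subunit of the classical dimer with RELA, was the steadiest subunit in control, at 10.9, 10.4 and 10.6 RPKM. In PA it was at 10.3, 10.5 and 8.18 RPKM. PA 2 lay within the control range, PA 1 just under it and PA 3 clearly under it. PA minus control was -0.13 ± 0.12 (limma adjusted p = 0.527), and -0.03 without PA 3.

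REL, the subunit c-Rel known best from lymphoid cells, was the lowest of the 10, with 1.97, 1.52 and 2.73 RPKM in control. It was at 2.04, 1.38 and 0.77 RPKM in PA, so that the groups overlapped. The log2 fold change of -0.37 ± 0.24 (limma adjusted p = 0.353) understates proportional change at such low values. It was -0.17 without PA 3, -0.23 without control 3 and -0.56 without PA 1. Relative to its mean REL varied most of the 10 genes within each group, with SDs of 29.5% of the mean in control and 45.5% in PA. Its exons overlap those of AC010733.2, a transcript on the same strand listed at 2.53 to 4.77 RPKM, so that reads of the pair may not be separable.

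Among the inhibitors, NFKBIA, which encodes IkB-alpha, the rapid feedback inhibitor whose promoter is shown above, was the most abundant. Its RPKM was 50.8, 55.2 and 45.6 in control and 45.3, 43.0 and 46.8 in PA. PA 1 and PA 2 lay below all controls, but PA 3 did not. Its log2 fold change was -0.16 ± 0.11 (limma adjusted p = 0.385), with a 95% interval from -0.41 to 0.09, and -0.09 without control 2.

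TNFAIP3, the ubiquitin-editing enzyme that shuts off signalling upstream of IKK, was at 9.80, 12.0 and 12.5 RPKM in control. It was at 12.0, 9.39 and 6.70 RPKM in PA. PA 1 lay within the control range, PA 2 just below and PA 3 well below it. PA differed from control by -0.29 ± 0.20 on the log2 scale (limma adjusted p = 0.384), which moved to -0.09 without PA 3 and to -0.47 without PA 1.

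NFKBIB, which encodes IkB-beta, was at 27.7, 29.3 and 20.7 RPKM in control and at 22.9, 24.0 and 23.7 RPKM in PA. All 3 PA values lay between control 3 and the other 2 controls. The log2 fold change of -0.12 ± 0.14 (limma adjusted p = 0.628) was -0.27 without control 3, -0.06 without control 1 and -0.03 without control 2. NFKBIB exons overlap those of SIRT2 on the opposite strand, which is listed at 15.8 to 20.8 RPKM, and the sources used here do not say whether counting used strand.

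NFKBIE, which encodes IkB-epsilon, had 11.8, 13.3 and 8.51 RPKM in control. In PA it had 12.9, 12.0 and 12.9 RPKM, all within the control range. Its log2 fold change was 0.18 ± 0.16 (limma adjusted p = 0.509), with 0.01 without control 3 and 0.30 without control 2.

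BCL3, an atypical IkB protein that acts in the nucleus with NFKB1 and NFKB2 homodimers, was at 20.4, 20.5 and 18.4 RPKM in control and at 26.1, 25.2 and 25.7 RPKM in PA. The groups were clear of each other by more than the spread within either, with means of 19.8 ± 1.16 and 25.6 ± 0.475 RPKM (SD, n = 3 per group). On the log2 scale PA was higher by 0.36 ± 0.10, with a 95% interval from 0.13 to 0.59 for this gene alone (limma adjusted p = 0.0726). BCL3 and NFKB2 would pass at an adjusted p of 0.1, which 12.8% of all genes did.

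The library in which a gene was lowest differed between the genes. NFKB2, RELB, NFKBIB, NFKBIE and BCL3 had their lowest value of all 6 libraries in control 3, whereas RELA, TNFAIP3, NFKB1 and REL had it in PA 3 and NFKBIA in PA 2. The former 5 are the genes above 60% GC when GC content is the median over transcripts tagged basic, where RELA has 59.0%. They include NFKB2, RELB and BCL3, whose PA values lay wholly above control. Over all coding transcripts RELA has 60.2%, and 6 genes are above that line, of which 5 were lowest in control 3 and RELA in PA 3. The line at 60% was chosen after these values were seen, and the split was not tested.

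**Figure D2:**
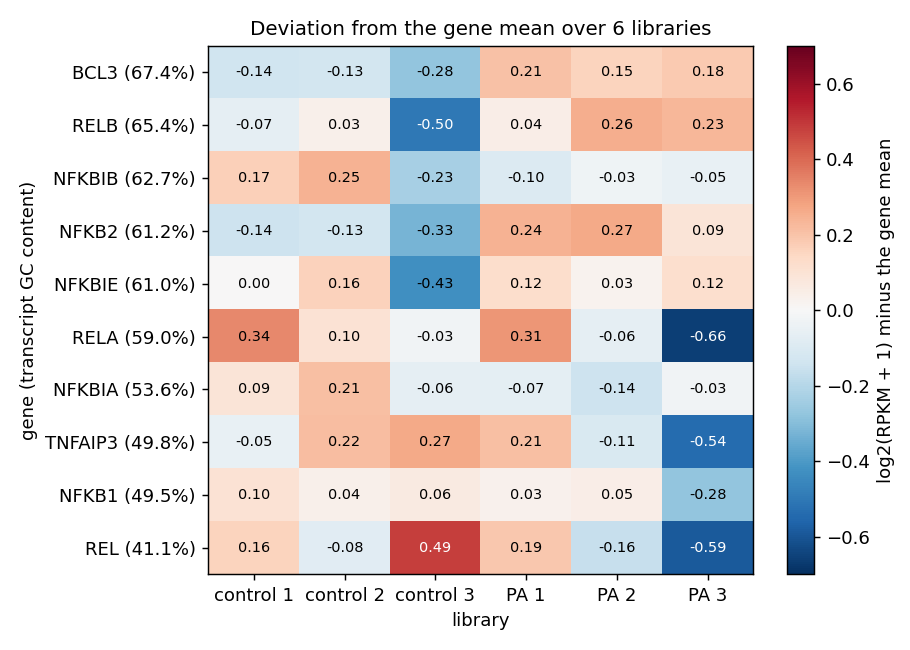
Each cell gives log2(RPKM + 1) of a gene in a library minus the mean of that gene over the 6 libraries. Rows are ordered from high to low transcript GC content, as median over basic GENCODE 29 transcripts. Control 3 holds the lowest value in the 5 upper rows and PA 3 in 4 of the 5 lower rows.

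In an alternative fit, any trend with transcript length and GC content was first taken out of each library, which leaves 13481 genes with both measures. NFKB2 then passed as higher, at 0.38 (limma adjusted p = 0.0154), and NFKBIB as lower, at -0.31 (limma adjusted p = 0.0414). That is 2 of 10 genes, beside 13.9% of all genes in that fit. With both measures taken from basic transcripts, a version added after seeing the data, NFKB2 (0.37, limma adjusted p = 0.0104), NFKBIB (-0.33, limma adjusted p = 0.0273) and NFKBIA (-0.25, limma adjusted p = 0.0428) passed, 3 of 10 beside 16.6% of all genes. BCL3 went from 0.36 to 0.16 and 0.17 in these fits (limma adjusted p = 0.202 and 0.163). The choice of transcript matters for RELA, whose median coding transcript is 771 nt among all and 2681 nt among basic ones, and its log2 fold change was -0.40 and -0.30.

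**Figure D3:**
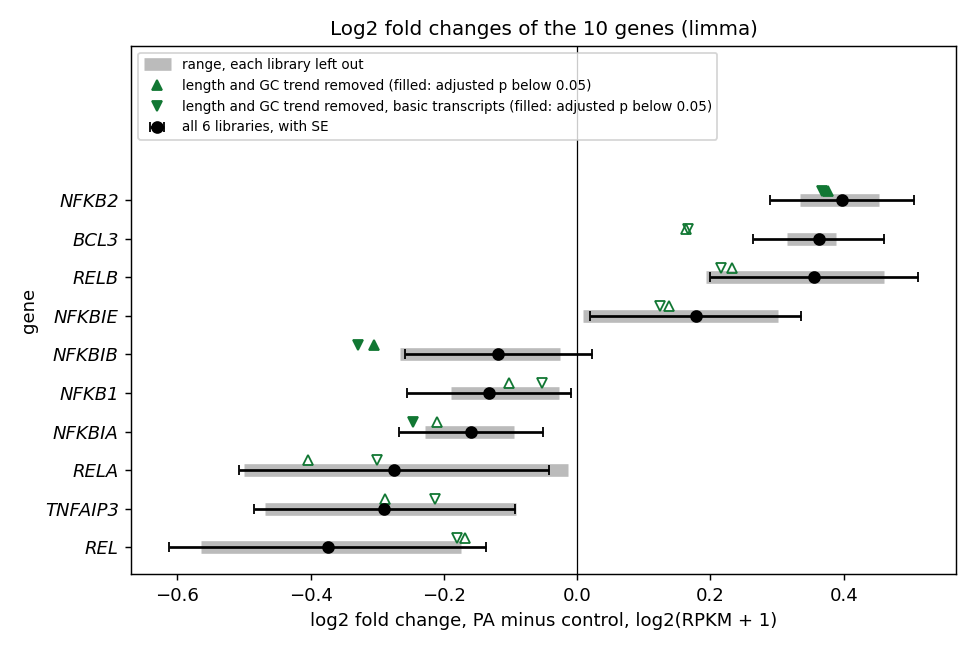
Log2 fold change of each gene, PA minus control, on the log2(RPKM + 1) scale. Black points are the fit of all 6 libraries with its SE, grey bars the range when each library is left out, and triangles the values with length and GC trends taken out, filled where the adjusted p is below 0.05. All 10 genes keep their sign in every setting drawn, and NFKB2 and NFKBIB are filled in both versions of the trend removal.

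The order of the levels rests on the unknown transcript lengths used for RPKM. RELA, NFKBIA and NFKB2 led in both groups and REL was last in both, while places between them changed. NFKBIB was in place 4 in control and 6 in PA, and TNFAIP3 in place 7 and 9. In control it ran from RELA (66.2 RPKM) through NFKBIA (50.5), NFKB2 (32.6), NFKBIB (25.9), BCL3 (19.8), RELB (19.0), TNFAIP3 (11.4), NFKBIE (11.2) and NFKB1 (10.6) to REL (2.07). Neighbours whose libraries overlapped there were BCL3 and RELB, TNFAIP3 and NFKBIE, and NFKBIE and NFKB1. In PA the ranges of RELA (56.3 RPKM) and NFKBIA (45.04) overlapped, as did those of NFKBIA and NFKB2 (43.2). BCL3 (25.6), RELB (24.3) and NFKBIB (23.5) also overlapped in turn, as did NFKB1 (9.67) and TNFAIP3 (9.35).

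Within a library the make-up of the Rel family does not depend on a single scale factor per library. Trends with length and GC content remain in it, and shares and ratios were not computed with these trends removed. The size of a share also rests on the transcript lengths used for RPKM, which are not known here. RELA made up 53.1%, 48.6% and 50.4% of the summed RPKM of the 5 subunits in control, and 48.5%, 40.9% and 33.6% in PA. NFKB2 made up 23.7%, 25.9% and 25.5% in control and 29.02%, 32.3% and 35.8% in PA. The RELA share was lower and the NFKB2 share higher in every PA library than in any control, although for RELA the gap between PA 1 and the lowest control was narrow. RELB held 14.5 ± 1.95% and 18.5 ± 4.14% (SD, n = 3 per group), with overlap, while NFKB1 held 8.20 ± 0.795% and 7.19 ± 0.392%, without it. REL held 1.62 ± 0.634% and 1 ± 0.321%, with overlap. These shares are a description and carry no test.

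The ratio of NFKB2 to RELA was 0.446, 0.532 and 0.506 in control and 0.598, 0.791 and 1.06 in PA. The groups did not overlap, and PA 3, with its low RELA, was the farthest out. The ratio of NFKB2 to NFKB1 was 3.06 ± 0.251 in control and 4.50 ± 0.326 in PA (SD, n = 3 per group), again without overlap. Groups overlapped for RELB to RELA, at 0.287 ± 0.0473 and 0.473 ± 0.19. They also overlapped for NFKBIA to RELA, at 0.769 ± 0.0952 and 0.871 ± 0.336. The summed RPKM of the 5 subunits was 130 ± 13.3 in control and 135 ± 21.3 in PA, and that of NFKBIA, NFKBIB and NFKBIE 87.6 ± 11.7 and 81.2 ± 2.16. The ratio of the IkB sum to the Rel family sum was 0.671 ± 0.0595 and 0.614 ± 0.117, with overlapping groups.

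**Figure D4:**
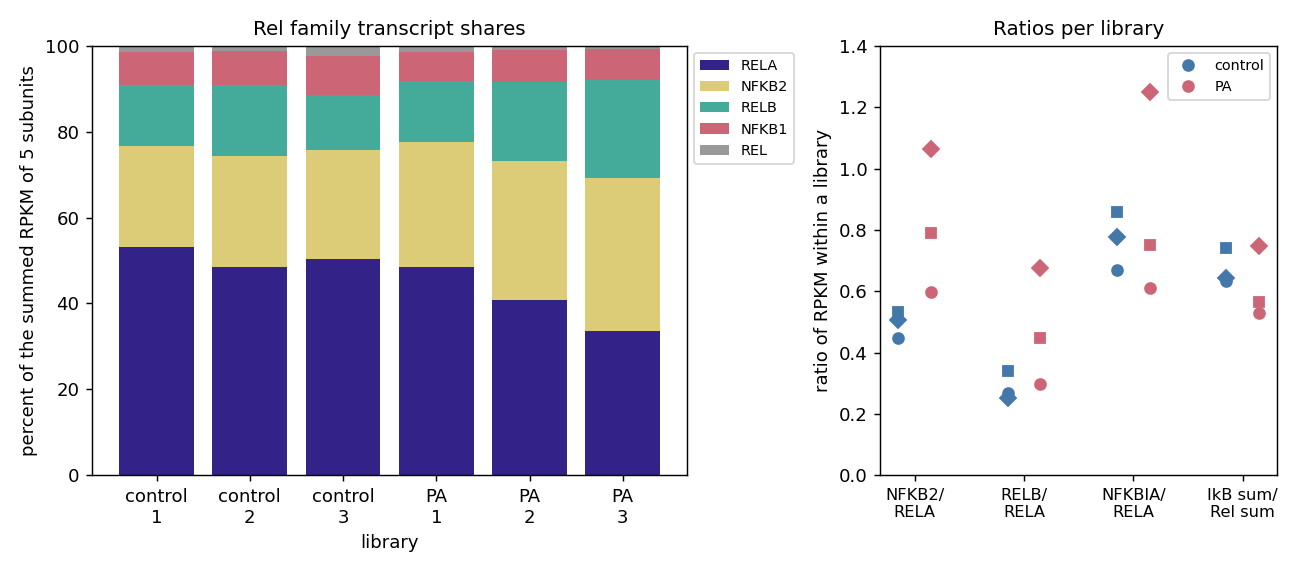
Left, the share of each subunit in the summed RPKM of the Rel family, per library, in percent. Right, ratios of RPKM within a library, with circles, squares and diamonds for replicates 1, 2 and 3. The RELA share lies below and the NFKB2 share lies above the control range in all 3 PA libraries, and NFKB2 to RELA is the ratio on the right whose groups do not overlap.

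For NFKB2 and REL, the genes with the largest fold changes in size, the transcripts most alike over the 6 libraries were looked up. With NFKB2 these were TKFC, a triose kinase, ADGRE2, an adhesion receptor, and MAN1B1, a mannosidase of the endoplasmic reticulum, with Pearson correlations of 0.996, 0.995 and 0.995 of log2(RPKM + 1). With REL they were CD109, a surface glycoprotein, MED1, a subunit of the mediator complex, and RIC1, at 0.999, 0.997 and 0.995. Values above 0.95 were reached by 298 genes with NFKB2 and by 217 with REL, so over 6 libraries such likeness is common, and it carries no test.

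Upstream of the subunits, 25 of 26 listed receptors and adaptors were tested and 1 passed, as lower, against 1.97% of all genes. This was MYD88, the adaptor of Toll-like and interleukin-1 receptors. It was at 8.24, 7.68 and 7.41 RPKM in control and at 5.58, 4.60 and 4.38 RPKM in PA, with a wide gap between the groups. Its log2 fold change was -0.59 (limma adjusted p = 0.0413), and it passed in 0 of the 6 fits that leave out a library, where it ran from -0.68 to -0.53. The median of the list was -0.11 and 10 of its 25 members had positive values.

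Around IKK, 17 genes for kinases, their partner proteins and ubiquitin machinery were tested. Of these 0 passed limma and 6 had an unadjusted p below 0.05, beside 4.81% and 25.9% of all genes. The largest values in size were those of IKBKE, an IKK-related kinase, from 4.24 ± 0.611 to 2.41 ± 0.643 RPKM (SD, n = 3 per group; log2 fold change -0.63, limma adjusted p = 0.0782), and of SHARPIN, a subunit of the linear ubiquitin ligase (0.45, limma adjusted p = 0.0941). SHARPIN overlaps MAF1 on the opposite strand, which is listed at 87.4 to 128.4 RPKM. The list median was -0.11. IKBKE passed in both versions of the length and GC fit, with a lowest limma adjusted p of 0.0173 and a highest of 0.201 over its 17 alternatives. Among 12 tested other inhibitors of the pathway 0 passed limma, 2 had an unadjusted p below 0.05, beside the same 4.81% and 25.9%, and the median was 0.03. COMMD1, which promotes turnover of RELA, was at 0.50 (limma adjusted p = 0.0688) and PDLIM2, a nuclear ubiquitin ligase for RELA, at 0.44 (limma adjusted p = 0.146). COMMD1 passed in both versions of the length and GC fit (limma adjusted p = 0.0411 and 0.04), and its highest over 18 alternatives was 0.232. It overlaps CCT4 on the opposite strand, which is listed at 174.58 to 287.89 RPKM, far above the 13.6 to 25.4 RPKM of COMMD1.

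Of 29 tested target genes of NF-kB, out of 40 listed, 4 rose and 6 fell, where 2.84% and 1.97% of all genes did. This list includes cytokine and chemokine genes that respond to other factors as well. CSF2, a myeloid growth factor, fell (log2 fold change -1.68, limma adjusted p = 0.0148), as did MMP3, a matrix protease (-1.36, limma adjusted p = 0.0073), and CCL2, a monocyte chemokine (-1.11, limma adjusted p = 0.0237). IL1A, the interleukin-1 alpha gene, rose from 2.37, 2.59 and 2.91 RPKM to 4.99, 5.21 and 6.62 RPKM, or by 0.86 on the log2 scale (limma adjusted p = 0.0279). The others that rose, named after their values were seen, were SAA1 (0.83, limma adjusted p = 0.0316), IL1B (0.55, 0.0295) and BCL2L1 (0.47, 0.0499). The others that fell were CXCL1 (-0.73, limma adjusted p = 0.0341), IL6 (-0.66, 0.0349) and CXCL3 (-0.55, 0.0381). BCL2L1 lay at the threshold and passed in 5 of 18 alternatives. The list median was -0.25, with 14 of 29 values positive. Calls went in both directions, and the feedback inhibitors NFKBIA and TNFAIP3 passed in neither.

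**Figure D5:**
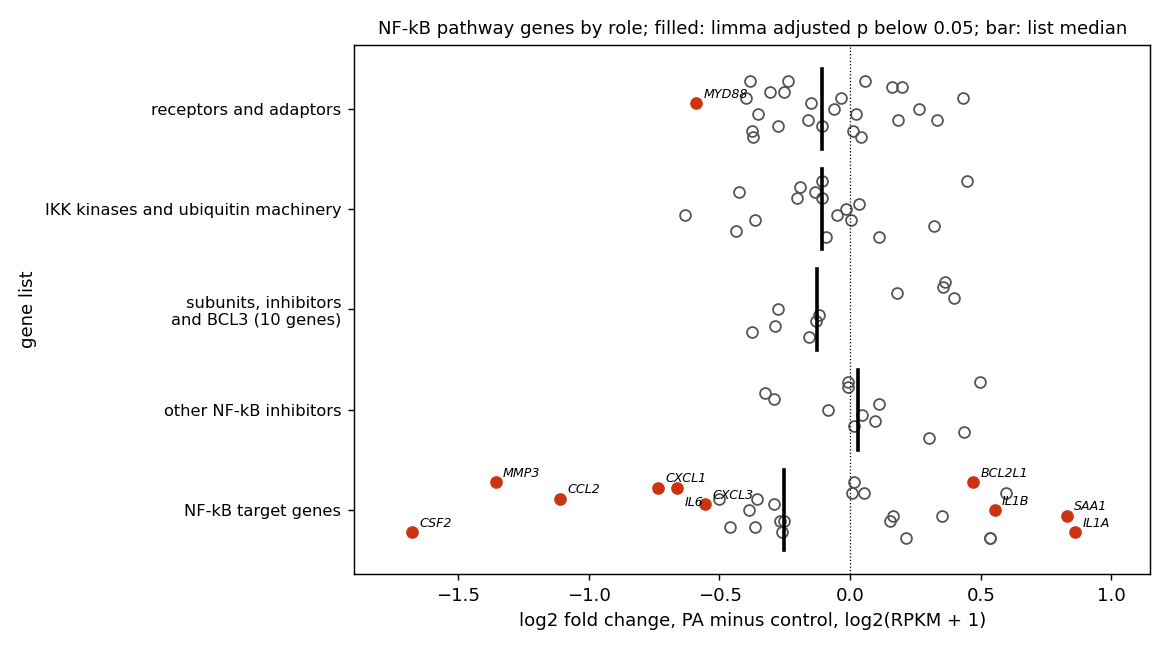
Log2 fold changes, PA minus control, of the tested genes of each list, ordered from receptors to targets. Each circle is a gene, filled and named where the limma adjusted p is below 0.05, and the vertical bar is the list median. Filled circles lie in the target list, on both sides of 0, except for MYD88 among the adaptors.

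Over the 4 lists together 11 of 83 tested genes passed, 13.3% beside 4.81% of all genes. Of these calls 10 were among the 29 target genes and 1 among the 25 receptors and adaptors. There were 0 among the 17 genes around IKK and 0 among the 12 other inhibitors. The lists were chosen with earlier results of these data known. Leaving out control 1 or control 2 left 1 call each, and leaving out control 3 left 2. Of the PA libraries, PA 1 left 3 calls when dropped, PA 2 left 0 and PA 3 left 9. Of the genes named by the rule, MMP3 passed in 5 of these 6 fits, CSF2 in 3, IL1A in 2 and CCL2 in 1. Of the others IL1B, IL6, CXCL3 and BCL2L1 passed in 1 each, and SAA1 and CXCL1 in 0. Calls over the whole table dropped as well in these fits, from 681 to between 10 and 364.

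Markers of other cell types were read beside these genes. Of 8 leukocyte markers 2 were tested, and CD14 passed as higher in PA, at 2.91 to 3.18 RPKM in control and 5 to 6.1 RPKM in PA. The summed level of the list, 44.03 to 55.1 RPKM in control and 65.6 to 76.4 RPKM in PA, was mostly CD68, a lysosomal protein, at 40.4 to 51.7 and 59.7 to 70.2 RPKM. CD68 did not pass, though its groups did not overlap. CSF1R went the other way at a low level, at 0.12 to 0.43 RPKM in control and 0 to 0.06 RPKM in PA, without overlap. LYZ overlapped, at 0.04 to 0.22 and 0.04 to 0.1 RPKM. PTPRC, the pan-leukocyte marker, was at most 0.03 RPKM in any library, and CD3E was at 0 in 5 of them. Of 6 endothelial markers TIE1 was tested and higher, at 5.32 to 6.15 RPKM in control and 8.41 to 10.5 RPKM in PA. It made up most of the sums of 6.41 to 7.01 and 9.23 to 11.6 RPKM. TEK was lower in PA, at 0.11 to 0.15 and 0.03 to 0.05 RPKM, while CDH5 and VWF were at most 0.06 and 0.18 RPKM. Fibroblast markers had 2 of 9 lower, beside 1.97% of all genes, and 1 of the 9 had a positive value. PA lay wholly below control for 4 of the 9, beside 15.9% of all genes. Among these were COL1A1 (272.2 to 327.7 and 80.18 to 177.7 RPKM) and COL3A1 (3.53 to 3.98 and 0.81 to 0.95 RPKM). The list sums, 2683 to 3189 and 2471 to 2567 RPKM, were mostly VIM, at 2101 to 2504 and 1990 to 2180 RPKM. Of the cardiomyocyte markers TNNI3 was higher in PA, at 0.61 to 1.39 RPKM in control and 2.6 to 3.99 RPKM in PA. The list sums were 0.95 to 2.86 and 3.66 to 4.35 RPKM, and those in PA were mostly TNNI3. NPPA, MYH6 and PLN, at most 0.25 RPKM in control, were at 0 in every PA library, but PLN was also at 0 in control 1. TNNT2 went the other way, at 0 in every control library and at 0.15, 0 and 0.07 RPKM in PA. The part of any of these markers in the results above was not tested.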

How the data were processed

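RNA of 6 libraries was measured by sequencing after preparation with an mRNA kit, per the labels' protocols. The authors deposited 1 table per library with gene identifier, gene name and RPKM. The submitters' processing notes name FastQC, fastp, HISAT2, StringTie, RSEM and hg19 but give no role, order or version. Gene models, strand use and shared reads in counting were not described in the sources used here.

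RPKM values are not counts, and depth is unknown, so limma 3.58.1 under R 4.3.3 was applied to log2(RPKM + 1) with a trended empirical Bayes variance, both tails and no covariate. Tested were 14159 genes averaging 1 RPKM or more, with Benjamini-Hochberg adjustment over all of them and a threshold of 0.05. The script was tested on simulated data. For 3 against 3 libraries the smallest exact permutation p is 0.1, so that test was left out. Lengths, GC content and exon overlaps came from GENCODE 29, joined on gene identifiers without version; its build differs from hg19, so coordinates are given for RefSeq promoters only. Natural splines of log2 length and GC, fitted to each library's departure from the mean of each gene, gave the trend for 95.2% of tested genes.

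The 10 genes, the 4 pathway lists and the marker lists were chosen with earlier results of these data known. From a pathway list the text names up to 4 genes past the threshold by size of log2 fold change, or 2 where none passed, and says where others were added. Alternatives covered pseudocount, filter, scaling, variance model, replicate block, trend removal and each library left out.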

Additional observations from a re-analysis of the deposited data

How the results depend on the processing

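All 10 genes kept the sign of their log2 fold change under every alternative in which they were tested, 18 for each gene and 17 for REL. The count of these genes past the threshold was 0 except with the length and GC trend removed (2), with that trend from basic transcripts (3, chosen after seeing the data) and at an adjusted p of 0.1 (2). It was 0 in all 6 fits that left out a library. Genes called over the whole table, 681, were 29 at an adjusted p of 0.01, 72 with no filter, 272 with a mean RPKM of at least 0.1, 1875 with the trend removed and 2242 with basic transcripts, and ran from 10 to 364 with a library left out. Pathway genes called, 11, were 1 with no filter, 5 with a mean RPKM of at least 0.1, 23 with the trend removed and 24 with basic transcripts, and ran from 0 to 9 with a library left out. The cause was not tested. Rescaling to a common sum moved the median of all genes from -0.02 to -0.11 and the share of higher calls from 59.0% to 39.0%; NFKB2 was then 0.29, BCL3 0.26 and RELB 0.25.

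With the replicate block, 98 genes, 1 pathway gene and 0 of the 10 passed. The numbers were not taken to pair the samples. Deviations of same-numbered libraries correlated at 0.157, -0.0144 and 0.0371, and those of differently numbered ones at -0.179 to 0.121. These values do not settle whether the numbers pair the samples. Depth is unknown, so the counting error of low genes such as REL cannot be given.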
